A study of Mus musculus with 11 samples.

Results

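The genes that make, export, break down and sense the cysteinyl leukotrienes were followed in RNA sequencing of mouse airway. Gene identifiers of the expression table were matched to 10 gene symbols, Alox5, Alox5ap, Ltc4s, Mgst2, Lta4h, Abcc1, Dpep1, Dpep2, Cysltr1 and Cysltr2, and all 10 were among the 21899 genes listed. Of these, 9 entered the statistical fit together with the rest of 14004 genes, and Dpep2 lay under its minimum of 0.5 FPKM, the fragments of a library divided by its total and by the exon length of the gene.

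All mice were described as wild-type male BALB/c mice of 6 to 8 weeks. The PBS group (n = 3 libraries) was neither sensitised nor challenged and received PBS only. The OVA/LPS/Vehicle group (n = 4) was sensitised with intraperitoneal ovalbumin (OVA) in alum on days 0 and 7, given OVA by the nose on days 14 to 17 and lipopolysaccharide (LPS) by the nose on days 19 and 21, and dosed with vehicle into the trachea on days 21 to 23. The OVA/LPS/GGsTop group (n = 4) had the same sensitisation and challenge and received GGsTop, an inhibitor of γ-glutamyl transferase, at 0.5 mg/kg in place of vehicle, and endpoints were taken on day 25. The OVA/LPS/Vehicle libraries carry the numbers 12, 34, 56 and 78. Whether these numbers stand for pooled animals is not stated, and p-values measure the spread between libraries. Tissue was labelled trachea, whereas the methods describe bluntly dissected airway without trachea. Airway epithelial markers were abundant in every library (8 of 8 markers above 0, led by Scgb1a1), while the summed level of 5 cartilage markers ran from 0.328 to 63.1 FPKM between libraries.

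Leukotrienes are made from arachidonic acid by 5-lipoxygenase (Alox5), which takes its substrate from the 5-lipoxygenase-activating protein (Alox5ap) and forms the unstable epoxide LTA4. LTA4 hydrolase (Lta4h) turns it into LTB4, and LTC4 synthase (Ltc4s) or the microsomal glutathione transferase Mgst2 joins it to glutathione as LTC4. LTC4 leaves the cell through the transporter Abcc1, a γ-glutamyl transferase removes glutamate to give LTD4, and membrane dipeptidases such as Dpep1 and Dpep2 remove glycine to give LTE4. The receptors Cysltr1 and Cysltr2 carry the signal that contracts airway smooth muscle and makes vessels leak, and in airway tissue the pathway is best known from mast cells, eosinophils and macrophages.

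The libraries held between 14513136 and 18632382 fragments, as the steps of the FPKM values implied. A property of whole libraries bears on the members. The level of a gene relative to its mean over all libraries moved with the GC content of its transcript. Per 10 GC points the slope ran from −0.26 to −0.19 log2 units with vehicle and from 0.05 to 0.11 with GGsTop, and was 0.06, 0.05 and 0.53 in PBS 1, 2 and 3. PBS 3 therefore stood apart from the other PBS libraries. The median GC content of genes in the fit was 49.9%, and the members ran from 36.3% (Cysltr1, with 0.744% of genes lower) to 61.0% (Ltc4s, with 97.4% of genes lower). Each comparison is given as deposited and after a GC correction, which subtracts this trend from each library. Tissue content also set libraries apart. The sum of 5 thyroid markers, led by Tg, was 92.9, 176 and 315 FPKM in OVA/LPS/Vehicle 12, 34 and 56 and at most 1.68 in every other library. With OVA/LPS/Vehicle 78 as the lone library of its group, assumed to vary like the others, the log2 difference from PBS was −1.01 for Dpep1 and 0.41 for Cysltr1, and GGsTop against vehicle gave 0.53 for Dpep1, −0.46 for Cysltr1, 0.35 for Alox5 and 0.75 for Ltc4s. No member passed the test in that setting, where limma called 4 of all genes in the former comparison and 0 in the latter (854 at an unadjusted p under 0.05). In bulk tissue, fewer cells of a type and less RNA per cell cannot be told apart.

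The members spanned a wide range of levels. Dpep1 was the most abundant in all groups, at 77.8 ± 39.9 FPKM (SD, n = 3) in PBS, 28.2 ± 5.14 (n = 4) in OVA/LPS/Vehicle and 50.2 ± 5.67 (n = 4) in OVA/LPS/GGsTop, and its libraries did not overlap with those of the next member, Lta4h, in any group. Lta4h followed at 8.77 ± 0.231, 8.17 ± 0.515 and 7.41 ± 0.346 FPKM in the same order of groups. Alox5ap, Alox5, Abcc1 and Mgst2 formed a middle tier with means between 3.27 and 5.79 FPKM, and neighbours within that tier overlapped in every group. Cysltr1, Ltc4s and Cysltr2 had means between 0.357 and 2.02 FPKM. In PBS the ranges of Cysltr1, Ltc4s and Cysltr2 overlapped from each to the next, in OVA/LPS/Vehicle Cysltr1 stood above Cysltr2 without overlap, and in OVA/LPS/GGsTop Ltc4s stood above Cysltr2 without overlap. Dpep2 was the lowest member in each group, with a mean of at most 0.206 FPKM.

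**Figure D1:**
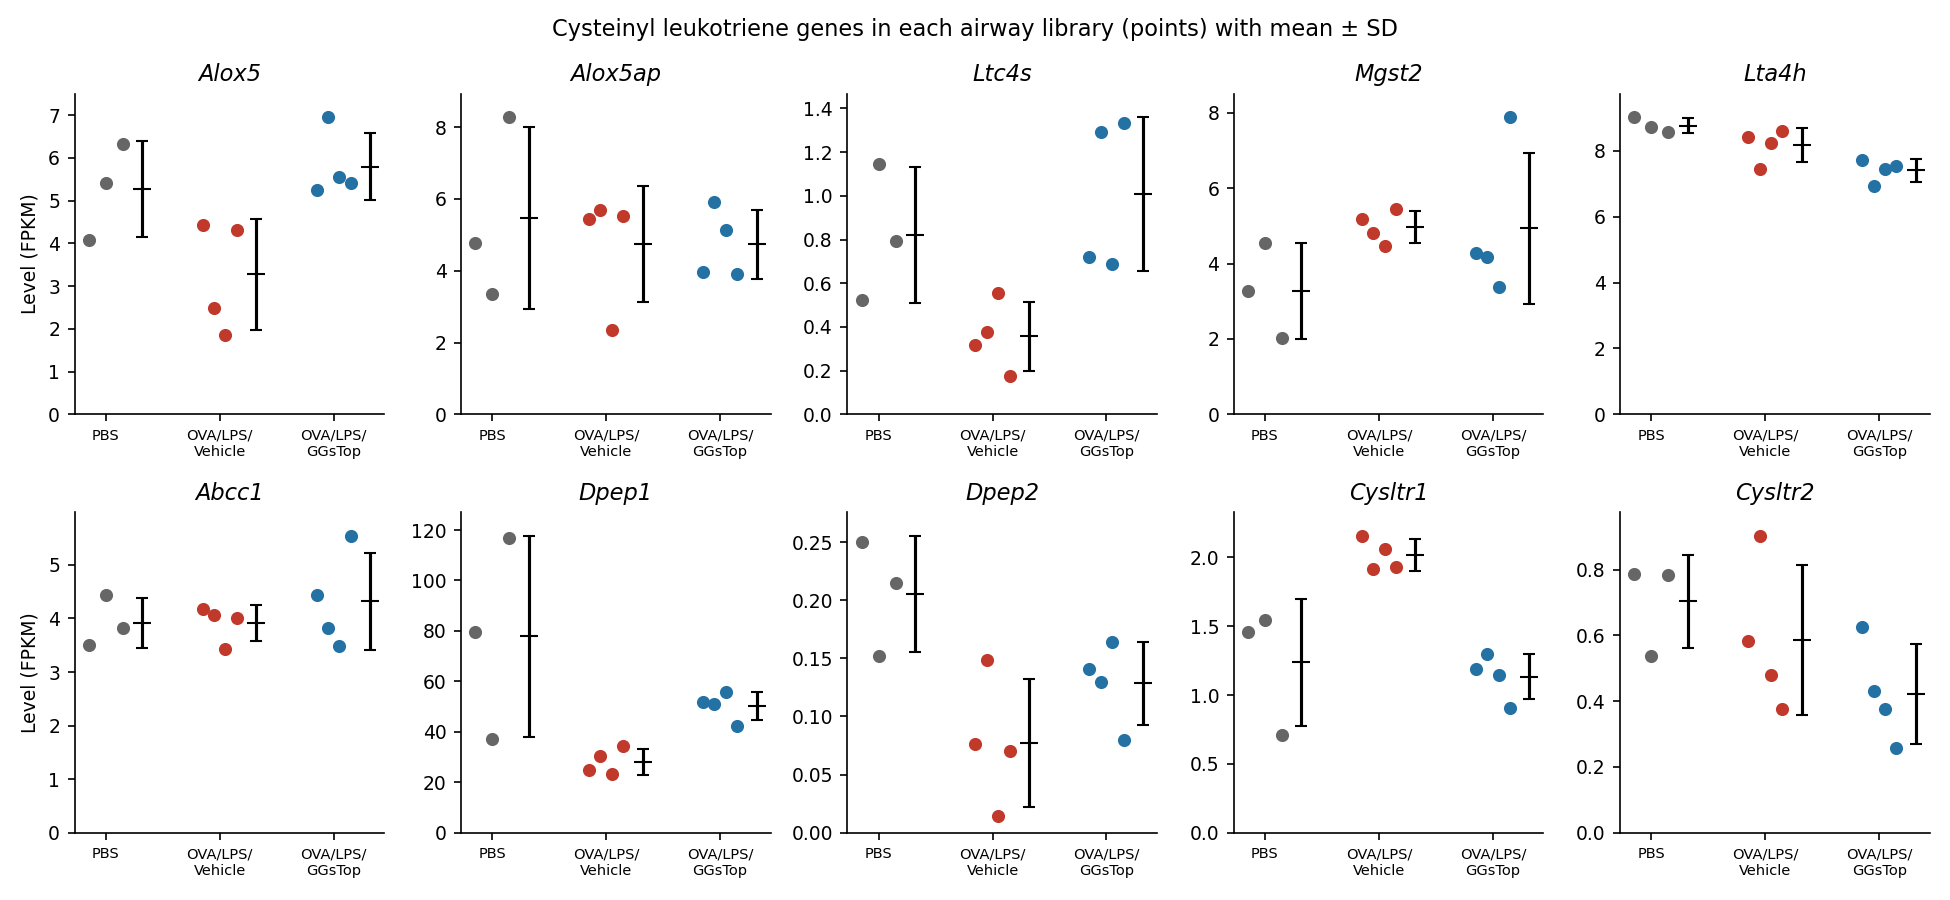
Level of each of the 10 genes in FPKM (vertical axis, from 0, separate scale per gene) in every library, by group (horizontal axis), with points for libraries and a bar for the mean ± SD (n = 3, 4 and 4). Cysltr1 lies at 1.92 FPKM or above in all OVA/LPS/Vehicle libraries and at 1.54 or below in every other library, and Dpep1 is lowest in OVA/LPS/Vehicle.

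Alox5, the first enzyme of the pathway, was at 4.07, 5.42 and 6.31 FPKM in PBS 1 to 3, at 4.43, 2.50, 1.85 and 4.31 in OVA/LPS/Vehicle 12, 34, 56 and 78, and at 5.26, 6.95, 5.54 and 5.41 in OVA/LPS/GGsTop 1 to 4. All OVA/LPS/GGsTop libraries lay above all OVA/LPS/Vehicle libraries, whereas PBS overlapped with both. The log2 fold change of (FPKM + 1) in the OVA/LPS/GGsTop group compared with the OVA/LPS/Vehicle group was 0.71 (SE 0.21), a ratio of mean FPKM of 1.77, with a Benjamini-Hochberg adjusted p = 0.0521 in limma, just outside the threshold of 0.05. Compared with PBS, OVA/LPS/Vehicle stood at −0.59 (SE 0.22, adjusted p = 0.0552) and OVA/LPS/GGsTop at 0.12 (SE 0.22, adjusted p = 0.773). After GC correction the difference between OVA/LPS/GGsTop and OVA/LPS/Vehicle was 0.58 (adjusted p = 0.113), and those groups still did not overlap.

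Alox5ap, the membrane partner of Alox5, was at 4.77, 3.36 and 8.28 FPKM in PBS, at 5.45, 5.70, 2.34 and 5.52 in OVA/LPS/Vehicle and at 3.98, 5.92, 5.13 and 3.90 in OVA/LPS/GGsTop. The groups overlapped throughout, PBS 3 was the highest library and OVA/LPS/Vehicle 56 the lowest. Its difference between OVA/LPS/GGsTop and OVA/LPS/Vehicle was 0.03 on the log2 scale (95% interval −0.55 to 0.62, adjusted p = 0.947), and that between OVA/LPS/Vehicle and PBS was −0.15 (−0.78 to 0.48, adjusted p = 0.689). The intervals leave room for changes of over 0.5 log2 units in either direction in the former. In the annotation, 189 of the 1420 exon bases of Alox5ap also lie under an opposite-strand gene, and library strand was not stated, so its level is uncertain to that extent.

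Ltc4s, the enzyme that commits LTA4 to the cysteinyl branch, was at 0.524, 1.15 and 0.794 FPKM in PBS, at 0.318, 0.374, 0.557 and 0.177 in OVA/LPS/Vehicle and at 0.720, 1.29, 0.688 and 1.33 in OVA/LPS/GGsTop. Again the OVA/LPS/GGsTop libraries all lay above the OVA/LPS/Vehicle libraries, and PBS overlapped with both. These levels rest on 8 to 18, 3 to 9 and 11 to 20 fragments per library, and the exact Poisson 95% interval of the lowest, OVA/LPS/Vehicle 78, ran from 0.0365 to 0.517 FPKM, which covers counting error only. The difference between OVA/LPS/GGsTop and OVA/LPS/Vehicle was 0.56 (SE 0.16, adjusted p = 0.0502), a ratio of means of 2.83, and did not pass the threshold. It was 0.28 (adjusted p = 0.386) after GC correction, which left the groups overlapping. Against PBS, OVA/LPS/Vehicle stood at −0.42 (SE 0.17, adjusted p = 0.0712), and at −0.02 (adjusted p = 0.944) after GC correction. In addition, 268 of its 1014 exon bases lie under an opposite-strand gene.

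Mgst2, which can also form LTC4, was at 3.26, 4.55 and 2.01 FPKM in PBS, at 5.19, 4.80, 4.47 and 5.45 in OVA/LPS/Vehicle and at 4.29, 4.19, 3.39 and 7.88 in OVA/LPS/GGsTop. PBS 2 reached into the range of OVA/LPS/Vehicle, and OVA/LPS/GGsTop 4 was the highest library. The difference between OVA/LPS/Vehicle and PBS was 0.52 (SE 0.24, adjusted p = 0.101) and that between OVA/LPS/GGsTop and OVA/LPS/Vehicle −0.06 (95% interval −0.55 to 0.42, adjusted p = 0.878).

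Lta4h, which leads to LTB4, varied least of the enzymes, from 8.57 to 9.02 FPKM in PBS, 7.43 to 8.60 in OVA/LPS/Vehicle and 6.92 to 7.73 in OVA/LPS/GGsTop. The OVA/LPS/GGsTop libraries lay below all PBS libraries, and 14.8% of the genes in the fit did not overlap between these groups, 7.54% lower and 7.22% higher in OVA/LPS/GGsTop. Its log2 difference from PBS was −0.09 (adjusted p = 0.396) in OVA/LPS/Vehicle and −0.22 (adjusted p = 0.183) in OVA/LPS/GGsTop, and GGsTop against vehicle gave −0.12 (adjusted p = 0.297). With GC correction, Lta4h passed the threshold in OVA/LPS/Vehicle against PBS at −0.33 (SE 0.08, adjusted p = 0.0225), and at −0.26 (adjusted p = 0.0848) when PBS 3 was also left out.

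Abcc1, the exporter of LTC4, was at 3.92 ± 0.472 FPKM in PBS, 3.92 ± 0.337 in OVA/LPS/Vehicle and 4.32 ± 0.904 in OVA/LPS/GGsTop. Its libraries ran from 3.43 to 5.54 FPKM and the groups overlapped. The 95% interval of the log2 difference was −0.29 to 0.30 for OVA/LPS/Vehicle against PBS and −0.17 to 0.37 for GGsTop against vehicle.

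Dpep1, the dipeptidase that forms LTE4, was at 79.5, 37.2 and 117 FPKM in PBS 1 to 3, at 24.8, 30.5, 23.3 and 34.3 in OVA/LPS/Vehicle and at 51.7, 51.1, 55.7 and 42.3 in OVA/LPS/GGsTop. Every OVA/LPS/Vehicle library lay below every library of the other groups, and the OVA/LPS/GGsTop libraries lay inside the wide PBS range. After GC correction PBS 2 and OVA/LPS/Vehicle 78 overlapped. Dpep1 fell by 1.30 on the log2 scale (SE 0.30, adjusted p = 0.009) in OVA/LPS/Vehicle compared with PBS, a ratio of mean FPKM of 0.362, where 0.343% of the genes tested had a lower fold change. The difference between OVA/LPS/GGsTop and OVA/LPS/Vehicle was 0.82 (SE 0.28, adjusted p = 0.08), a ratio of 1.78 that did not pass the threshold as deposited, and that between OVA/LPS/GGsTop and PBS was −0.48 (SE 0.30, adjusted p = 0.378). After GC correction the difference between OVA/LPS/GGsTop and OVA/LPS/Vehicle was 0.69 (adjusted p = 0.152). It passed in 5 of 25 alternative settings: without PBS 2 (adjusted p = 0.015), without PBS 3 (adjusted p = 0.0225), with equal FPKM totals (adjusted p = 0.0462), with only these groups (adjusted p = 0.00535) and when libraries were weighted (adjusted p = 0.00625). With any OVA/LPS/Vehicle or OVA/LPS/GGsTop library left out it did not pass (adjusted p from 0.0831 to 0.197). The fall against PBS was −1.10 (adjusted p = 0.0223) after GC correction and −0.94 (adjusted p = 0.0332) without PBS 3, but with both it was −0.81 (adjusted p = 0.0906). Without PBS 2, the lowest PBS library, Dpep1 passed the threshold in OVA/LPS/GGsTop against PBS as well, at −0.93 (adjusted p = 0.0156), and without PBS 3 that difference was −0.12 (adjusted p = 0.872).

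Markers of several cell types were, like Dpep1, lower in OVA/LPS/Vehicle than in PBS, while those of others were higher. Of the 8 airway epithelial markers, 7 were higher and 1 lower, with 3 called higher, where 15.9% of all genes were. All 5 adipocyte markers were higher, and 0 were called. The summed level of 5 endothelial markers, led by Cdh5, ran from 513 to 836 FPKM in PBS, 409 to 460 in OVA/LPS/Vehicle and 277 to 588 in OVA/LPS/GGsTop, and 3 of the 5 passed the test as lower in OVA/LPS/Vehicle against PBS, where 22.1% of all genes did. The sum of 5 alveolar markers, led by Sftpc, ran from 10146 to 16222, from 5183 to 8579 and from 4583 to 11862 FPKM, with 2 of 5 called lower in OVA/LPS/Vehicle. The sum of 6 smooth muscle markers, led by Acta2, ran from 594 to 782, from 479 to 526 and from 469 to 1148 FPKM, with 1 of the 5 in the fit called lower, near the 22.1% of all genes. All 3 sums were lower in OVA/LPS/Vehicle than in PBS without overlap. In OVA/LPS/GGsTop against OVA/LPS/Vehicle the sums overlapped and no marker of these lists was called, where 8.71% of all genes were. The median log2 fold change there was −0.03 for endothelial, 0.16 for alveolar and 0.53 for smooth muscle markers. No marker of these lists was at 0 in all libraries, and their part in the level of Dpep1 was not tested.

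Dpep2, a second dipeptidase, was at 0.250, 0.152 and 0.215 FPKM in PBS, at 0.0759, 0.149, 0.0148 and 0.0705 in OVA/LPS/Vehicle and at 0.141, 0.130, 0.164 and 0.0795 in OVA/LPS/GGsTop, from 1 to 17 fragments per library. The OVA/LPS/Vehicle libraries lay below the PBS libraries, narrowly for 34, while OVA/LPS/GGsTop overlapped with both. An exact two-sided permutation test of log2(FPKM + 1) gave p = 0.0571 for OVA/LPS/Vehicle against PBS, p = 0.0857 for OVA/LPS/GGsTop against PBS and p = 0.2 for GGsTop against vehicle. The smallest p these designs allow was 0.0286. Of its 4247 exon bases, 1585 are shared with another identifier of the same symbol, so that the counting could split its fragments.

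Cysltr1, the receptor blocked by the leukotriene antagonists used in asthma, was at 1.46, 1.54 and 0.710 FPKM in PBS, at 2.16, 1.92, 2.06 and 1.93 in OVA/LPS/Vehicle and at 1.19, 1.30, 1.15 and 0.907 in OVA/LPS/GGsTop. The OVA/LPS/Vehicle libraries were the 4 highest of all 11, PBS 3 was the lowest, and OVA/LPS/GGsTop overlapped with PBS. As deposited, Cysltr1 rose by 0.45 on the log2 scale (SE 0.14, adjusted p = 0.0285) in OVA/LPS/Vehicle compared with PBS, a ratio of means of 1.63, and fell by 0.50 (SE 0.13, adjusted p = 0.0412), a ratio of 0.563, in OVA/LPS/GGsTop compared with OVA/LPS/Vehicle. It was at −0.05 (SE 0.14, adjusted p = 0.868) in OVA/LPS/GGsTop against PBS. Cysltr1 was the only member called for GGsTop against vehicle, 1 of 9 members in the fit, where 8.71% of all genes were called, 1.81% lower and 6.9% higher.

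Neither call of Cysltr1 held after GC correction. The difference between OVA/LPS/GGsTop and OVA/LPS/Vehicle became −0.08 (95% interval −0.27 to 0.10, adjusted p = 0.594), and that between OVA/LPS/Vehicle and PBS turned to −0.16 (−0.37 to 0.04, adjusted p = 0.212). The median of the 212 genes with a GC content from 36 to 38%, where Cysltr1 lies, was −0.40 in GGsTop against vehicle and 0.59 in OVA/LPS/Vehicle against PBS, close to the values of Cysltr1 itself. The call in OVA/LPS/GGsTop against OVA/LPS/Vehicle was also lost when any of the 8 libraries compared was left out, with log2 differences from −0.54 to −0.45. In OVA/LPS/Vehicle against PBS the value without PBS 3 was 0.27 (adjusted p = 0.0845), and the call was also lost when any of the 4 OVA/LPS/Vehicle libraries was left out (adjusted p from 0.0516 to 0.0611), with only these groups compared (0.0573) and with equal FPKM totals (0.0847).

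**Figure D2:**
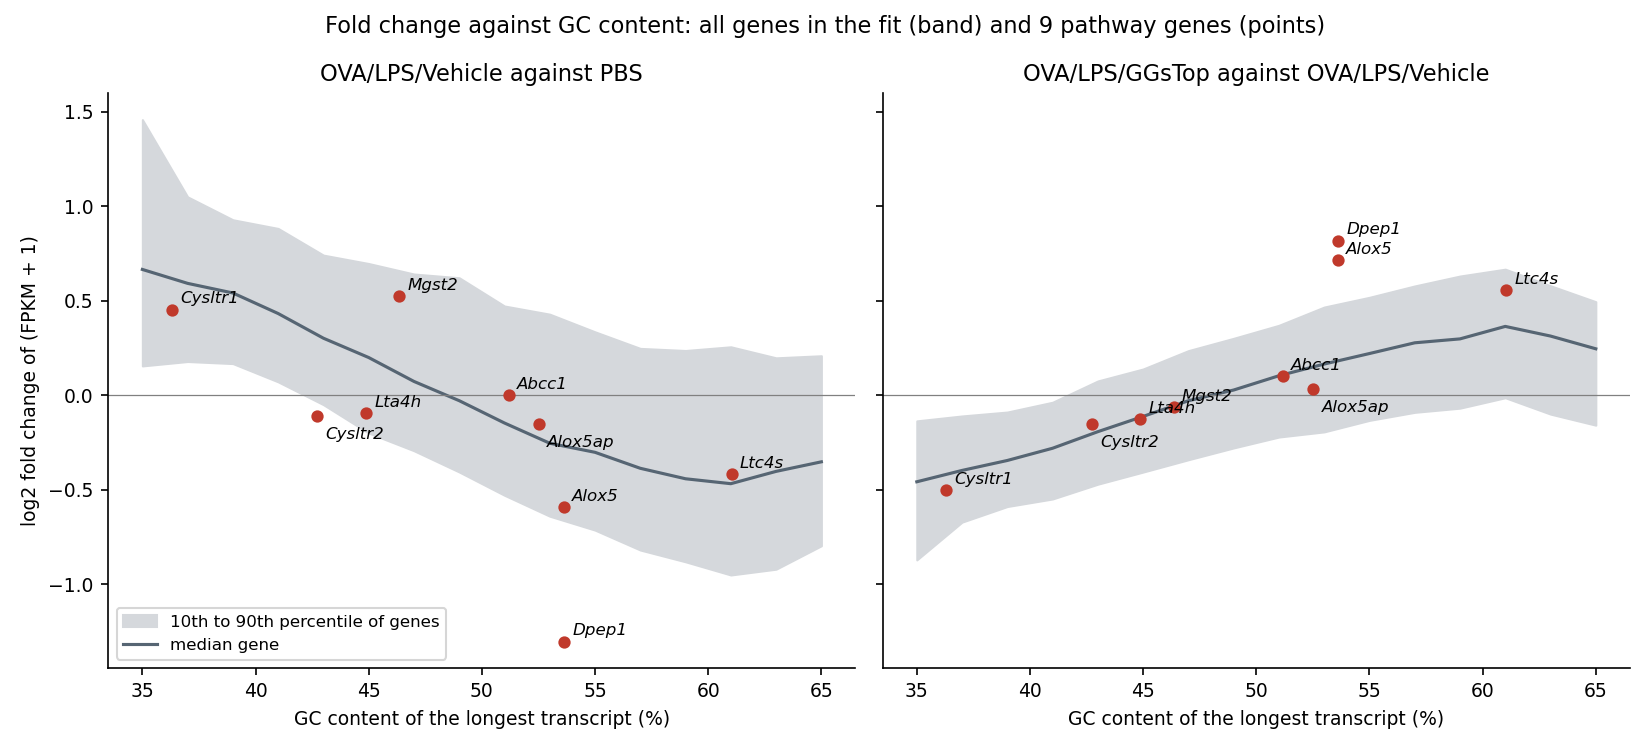
Log2 fold change of (FPKM + 1) (vertical axis) against GC content of the longest transcript in percent (horizontal axis) for OVA/LPS/Vehicle against PBS (left) and OVA/LPS/GGsTop against OVA/LPS/Vehicle (right). The line is the median of genes in bins of 2 GC points, the band spans their 10th to 90th percentile and the points are 9 pathway genes. Cysltr1 lies within the band at the low end of GC and Ltc4s at the high end. Dpep1 lies outside the band in both panels, Alox5 above it in the right one and Cysltr2 just below it in the left one.

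Cysltr2, the receptor linked to vascular responses, was at 0.786, 0.539 and 0.785 FPKM in PBS, at 0.584, 0.903, 0.481 and 0.375 in OVA/LPS/Vehicle and at 0.624, 0.432, 0.375 and 0.259 in OVA/LPS/GGsTop. The groups overlapped in every comparison. Its log2 differences were −0.11 (adjusted p = 0.548) in OVA/LPS/Vehicle against PBS, −0.15 (adjusted p = 0.448) in GGsTop against vehicle and −0.26 (adjusted p = 0.318) in OVA/LPS/GGsTop against PBS. After GC correction the first of these was −0.47 (adjusted p = 0.0593). The levels rest on 11 to 42 fragments per library.

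Counted over the members, OVA/LPS/Vehicle against PBS had 1 called lower (Dpep1) and 1 called higher (Cysltr1) of 9, where 38% of all genes were called, 22.1% lower and 15.9% higher. These members were also the 2 of 9 whose groups did not overlap, where 44.1% of all genes did not, 25.4% lower and 18.7% higher in OVA/LPS/Vehicle. The median log2 fold change was −0.11 over the members and −0.01 over all genes. In OVA/LPS/GGsTop against OVA/LPS/Vehicle, 4 of the 9 did not overlap between groups (Alox5, Ltc4s and Dpep1 higher, Cysltr1 lower), where 29.7% of all genes did not, 12.4% lower and 17.3% higher, and the median was 0.03 for both the members and all genes. In OVA/LPS/GGsTop against PBS none of the 9 was called by limma, 1 had an unadjusted p under 0.05, and 2.88% of all genes were called, 0.821% lower and 2.06% higher. The comparisons of OVA/LPS/Vehicle with PBS and of OVA/LPS/GGsTop with OVA/LPS/Vehicle share the OVA/LPS/Vehicle libraries, so that opposite signs in them are not independent.

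**Figure D3:**
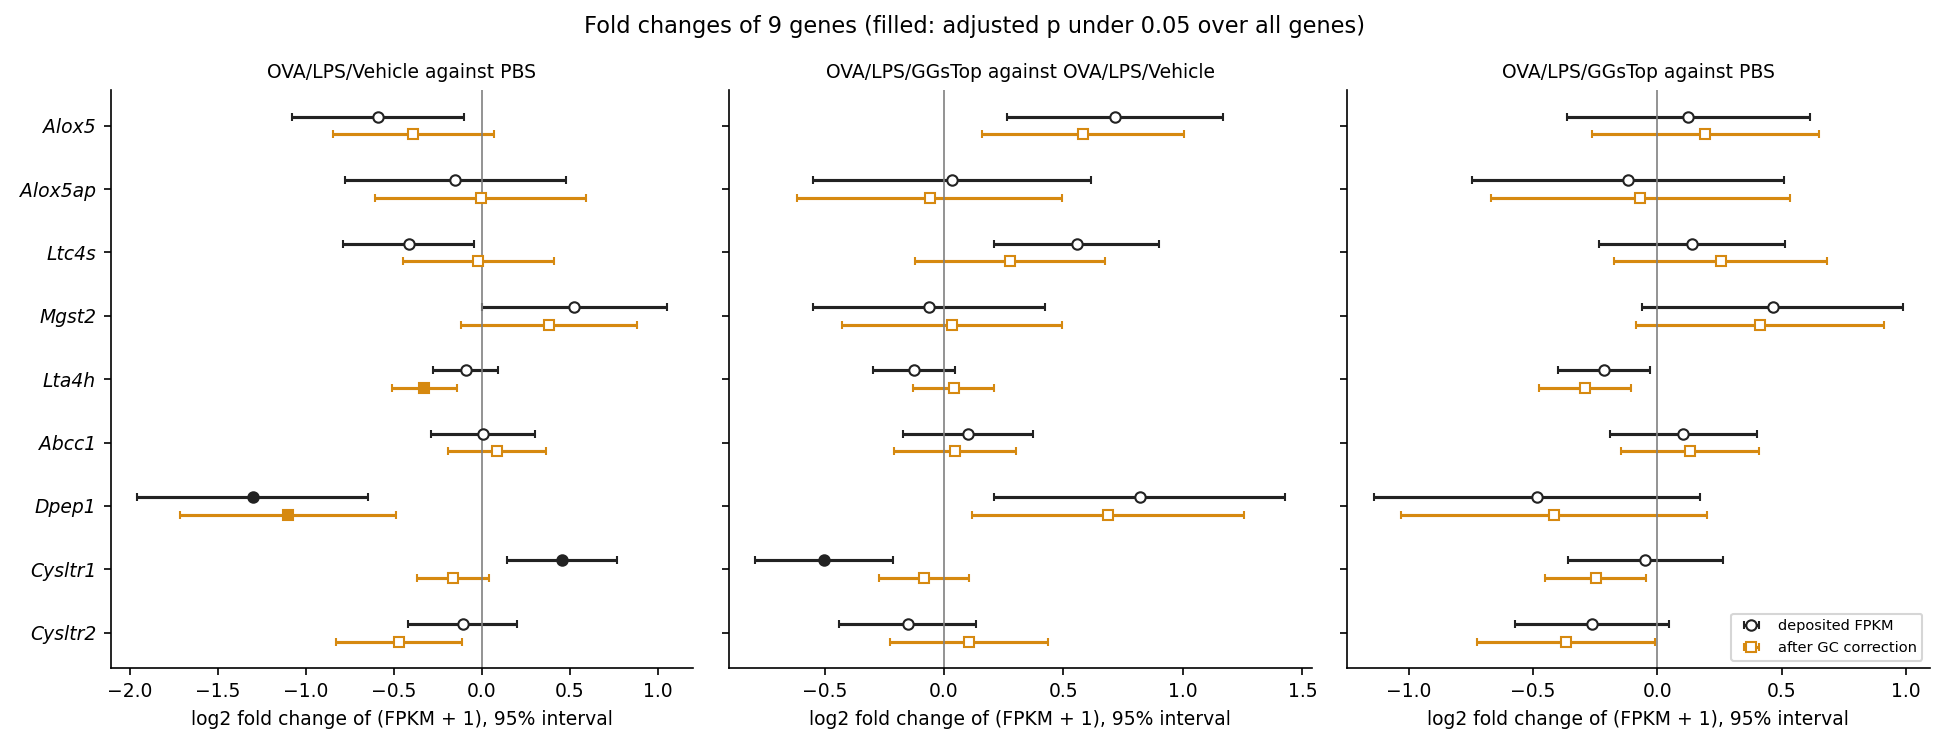
Log2 fold change of (FPKM + 1) (horizontal axis, separate scale per panel) with its 95% interval for 9 genes in the 3 comparisons, from the deposited FPKM (circles) and after GC correction (squares). Filled symbols have an adjusted p under 0.05: Dpep1 and Cysltr1 in OVA/LPS/Vehicle against PBS and Cysltr1 in OVA/LPS/GGsTop against OVA/LPS/Vehicle as deposited, and Dpep1 and Lta4h in OVA/LPS/Vehicle against PBS after GC correction.

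The 3 members that were higher in OVA/LPS/GGsTop than in OVA/LPS/Vehicle without overlap are shown with the 250 bases before their RefSeq start (GRCm38.p6). Motifs were searched on both strands for the GC box (GGGCGG, in 32.9% of 27025 genes with such a window), the TATA box (TATAAA, 13%) and a GATA motif (AGATAA, 10.3%), and matches are in capitals. The windows lie at chr6:116461179-116461428 on the minus strand (Alox5), chr11:50238533-50238782 on the minus strand (Ltc4s) and chr8:123185985-123186234 on the plus strand (Dpep1).
Alox5: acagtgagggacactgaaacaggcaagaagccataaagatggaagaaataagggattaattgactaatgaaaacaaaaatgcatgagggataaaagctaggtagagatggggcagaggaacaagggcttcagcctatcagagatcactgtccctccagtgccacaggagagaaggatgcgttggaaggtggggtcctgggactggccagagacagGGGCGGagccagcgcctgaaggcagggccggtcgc
Ltc4s: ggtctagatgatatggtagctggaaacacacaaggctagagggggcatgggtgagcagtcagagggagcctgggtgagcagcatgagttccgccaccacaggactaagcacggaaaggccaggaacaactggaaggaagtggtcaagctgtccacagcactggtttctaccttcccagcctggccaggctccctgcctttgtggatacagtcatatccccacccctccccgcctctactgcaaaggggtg
Dpep1: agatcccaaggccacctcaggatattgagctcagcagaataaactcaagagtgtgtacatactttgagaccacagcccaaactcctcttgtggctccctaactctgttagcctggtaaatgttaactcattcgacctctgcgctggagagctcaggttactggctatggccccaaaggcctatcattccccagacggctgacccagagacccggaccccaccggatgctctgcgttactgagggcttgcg
Alox5 held 1 GC box, starting 35 bases before the start, and the windows of Ltc4s and Dpep1 held none of these letters. Their GC contents were 52.8%, 57.6% and 53.6%, and the median over all genes was 52%. Of the 10 members, 6 had such a window.

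Ratios within a library do not depend on its total. The log2 ratio of Ltc4s to Lta4h, the branch between LTC4 and LTB4, was −3.87, −2.82 and −3.28 in PBS, −4.35, −3.99, −3.66 and −4.97 in OVA/LPS/Vehicle and −3.25, −2.34, −3.26 and −2.41 in OVA/LPS/GGsTop, computed on FPKM + 0.1. OVA/LPS/GGsTop lay above OVA/LPS/Vehicle in every library, by 1.43 in the mean (exact two-sided permutation p = 0.0286, the smallest possible, and 0.114 adjusted over 12 tests). The ratio of Alox5 to Alox5ap was likewise higher in all OVA/LPS/GGsTop libraries (0.11 to 0.46) than in OVA/LPS/Vehicle (−1.16 to −0.29), by 0.83 with the same p. Both separations were also seen in the ratios of FPKM with nothing added. The ratio of Dpep1 to Dpep2 has no stable direction, since Dpep2 lay near the 0.1 FPKM added. With it, OVA/LPS/GGsTop was higher by 0.44 without overlap, and without it the groups overlapped (8.41 to 9.05 against 7.68 to 10.62) and the difference was −0.24 (exact permutation p = 0.829), the highest value being that of OVA/LPS/Vehicle 56 with 1 fragment of Dpep2. The ratio of Cysltr1 to Cysltr2 overlapped, at 1.28 ± 0.301 in OVA/LPS/GGsTop and 1.68 ± 0.473 in OVA/LPS/Vehicle (exact permutation p = 0.2). None of the 12 ratio tests passed after adjustment. A within-library ratio still carries the difference in GC content between its genes, which was 61.0% for Ltc4s and 44.9% for Lta4h. The ratios were therefore also computed after GC correction, and with 1 FPKM added in place of 0.1. In these 2 settings Ltc4s to Lta4h differed by 0.68 to 0.98 between OVA/LPS/GGsTop and OVA/LPS/Vehicle, against 1.43 above. Its adjusted permutation p ran from 0.0857 to 0.4. Alox5 to Alox5ap differed by 0.68 to 0.79, against 0.83 above, with adjusted permutation p from 0.0857 to 0.343.

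**Figure D4:**
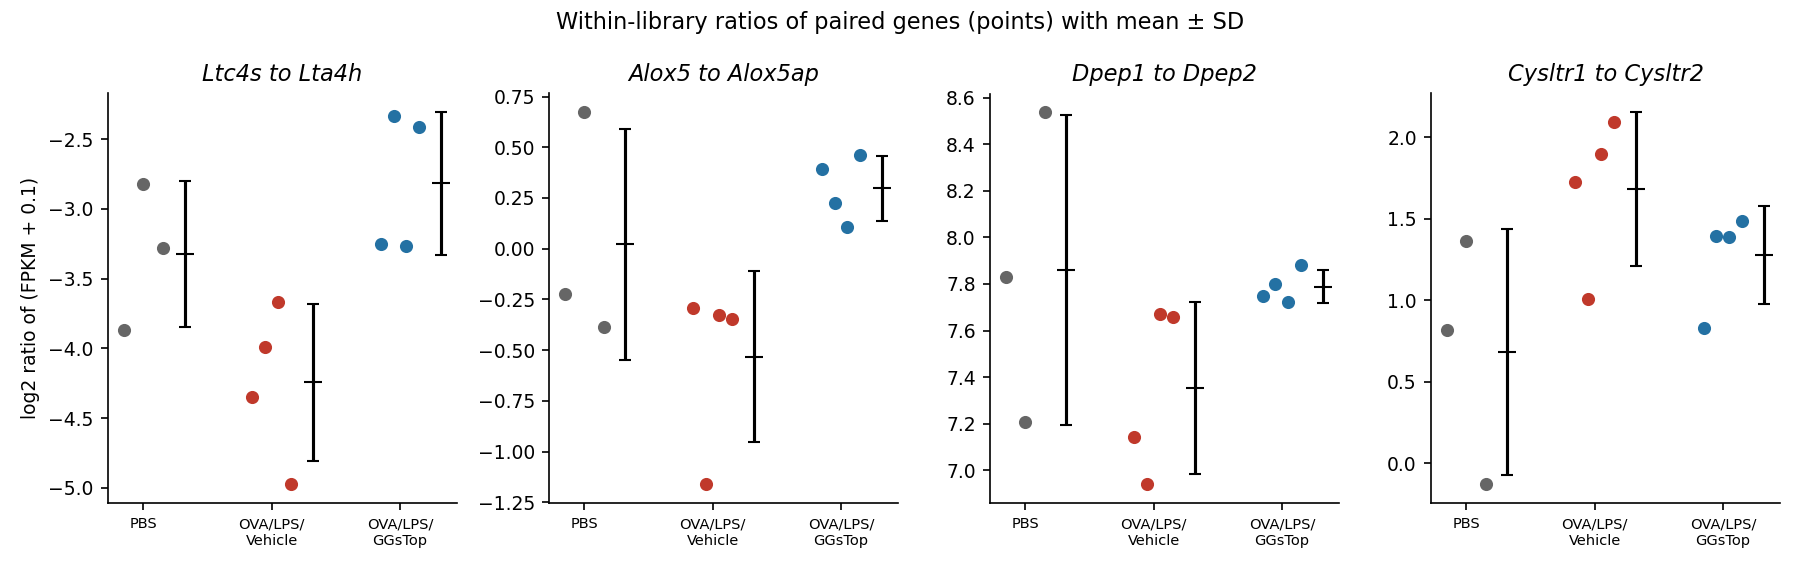
Log2 ratio of (FPKM + 0.1) within each library (vertical axis, separate scale per ratio, not from 0) by group (horizontal axis), with points for libraries and a bar for the mean ± SD (n = 3, 4 and 4). Ltc4s to Lta4h and Alox5 to Alox5ap are higher in all OVA/LPS/GGsTop than in all OVA/LPS/Vehicle libraries, and the separation seen for Dpep1 to Dpep2 is lost when the 0.1 FPKM is not added.

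Among 32 other genes of leukotriene metabolism, 22 were in the fit. Compared with PBS, OVA/LPS/Vehicle had 4 called lower and 3 higher of these 22, where 22.1% of all genes were called lower and 15.9% higher, with a median log2 fold change of −0.04. Pla2g4a, the cytosolic phospholipase that frees arachidonic acid, rose by 1.04 (adjusted p = 0.00757), from 2.71, 3.90 and 1.70 FPKM in PBS to between 5.57 and 7.55 in OVA/LPS/Vehicle, without overlap. Abcc3, an organic anion exporter, fell by 1.24 (adjusted p = 0.00348), from 16.7, 11.8 and 20.6 FPKM to between 5.35 and 7.55, also without overlap. Cyp4f13, of the family that oxidises LTB4, fell by 0.71 (adjusted p = 0.00605), and Ggt5, the γ-glutamyl transferase first known as γ-glutamyl leukotrienase, fell by 0.65 (adjusted p = 0.00801). These 4 genes were also called after GC correction, with Pla2g4a at 0.75, Abcc3 at −1.01, Cyp4f13 at −0.45 and Ggt5 at −0.56. Ggt6, a γ-glutamyl transferase, was called only after GC correction (0.72, adjusted p = 0.0381, and 0.35 as deposited, adjusted p = 0.249). When PBS 3 was also left out, Abcc3 alone was called (−0.91, adjusted p = 0.0386), with adjusted p from 0.0739 to 0.11 for the other 4. Pla2g6, a calcium-independent phospholipase (−0.49), Mgst1, a relative of Mgst2 (0.56), and P2ry12, a nucleotide receptor that has been linked to LTE4 (0.76), were called as deposited and not after GC correction.

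In OVA/LPS/GGsTop against OVA/LPS/Vehicle, Abcc3 (0.70, adjusted p = 0.0367), Pla2g6 (0.60, adjusted p = 0.0299) and Cyp4f13 (0.57, adjusted p = 0.0312) rose and P2ry12 fell by 0.66 (adjusted p = 0.0224), and none of these calls held after GC correction. The corrected differences were 0.54 for Abcc3 (95% interval 0.19 to 0.90, adjusted p = 0.087), 0.34 for Pla2g6, 0.39 for Cyp4f13 and −0.28 for P2ry12. P2ry12 resembled Cysltr1 in level and order, at 1.30, 1.47 and 0.675 FPKM in PBS, 2.14 to 2.81 in OVA/LPS/Vehicle and 1.09 to 1.52 in OVA/LPS/GGsTop. Pla2g4a overlapped between these groups (−0.34, adjusted p = 0.289), as did Mgst1 (−0.18, adjusted p = 0.41), the most abundant of these genes. In OVA/LPS/GGsTop against PBS, none of the 22 was called by limma and 7 had an unadjusted p under 0.05. With the shared numbers of these groups as a block, a fit without OVA/LPS/Vehicle in which the unmatched OVA/LPS/GGsTop 4 carries no weight, 1 of the 22 was called, Alox15, a lipoxygenase that makes other eicosanoids (1.39, adjusted p = 0.0498), and 95 of all genes were called. Without the block it was 403, 200 with OVA/LPS/GGsTop 4 left out and 39 with only these groups in the fit. The γ-glutamyl transferases, the enzyme family that GGsTop inhibits, were low. Ggt1 ran from 0.242 to 1.25 FPKM over all libraries, Ggt7 from 0.385 to 1.47, Ggt6 from 0.438 to 2.63 and Ggt5 from 0.784 to 3.03. None of the 4 was called between OVA/LPS/GGsTop and OVA/LPS/Vehicle, and the effect of GGsTop on each enzyme was not tested.

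**Figure D5:**
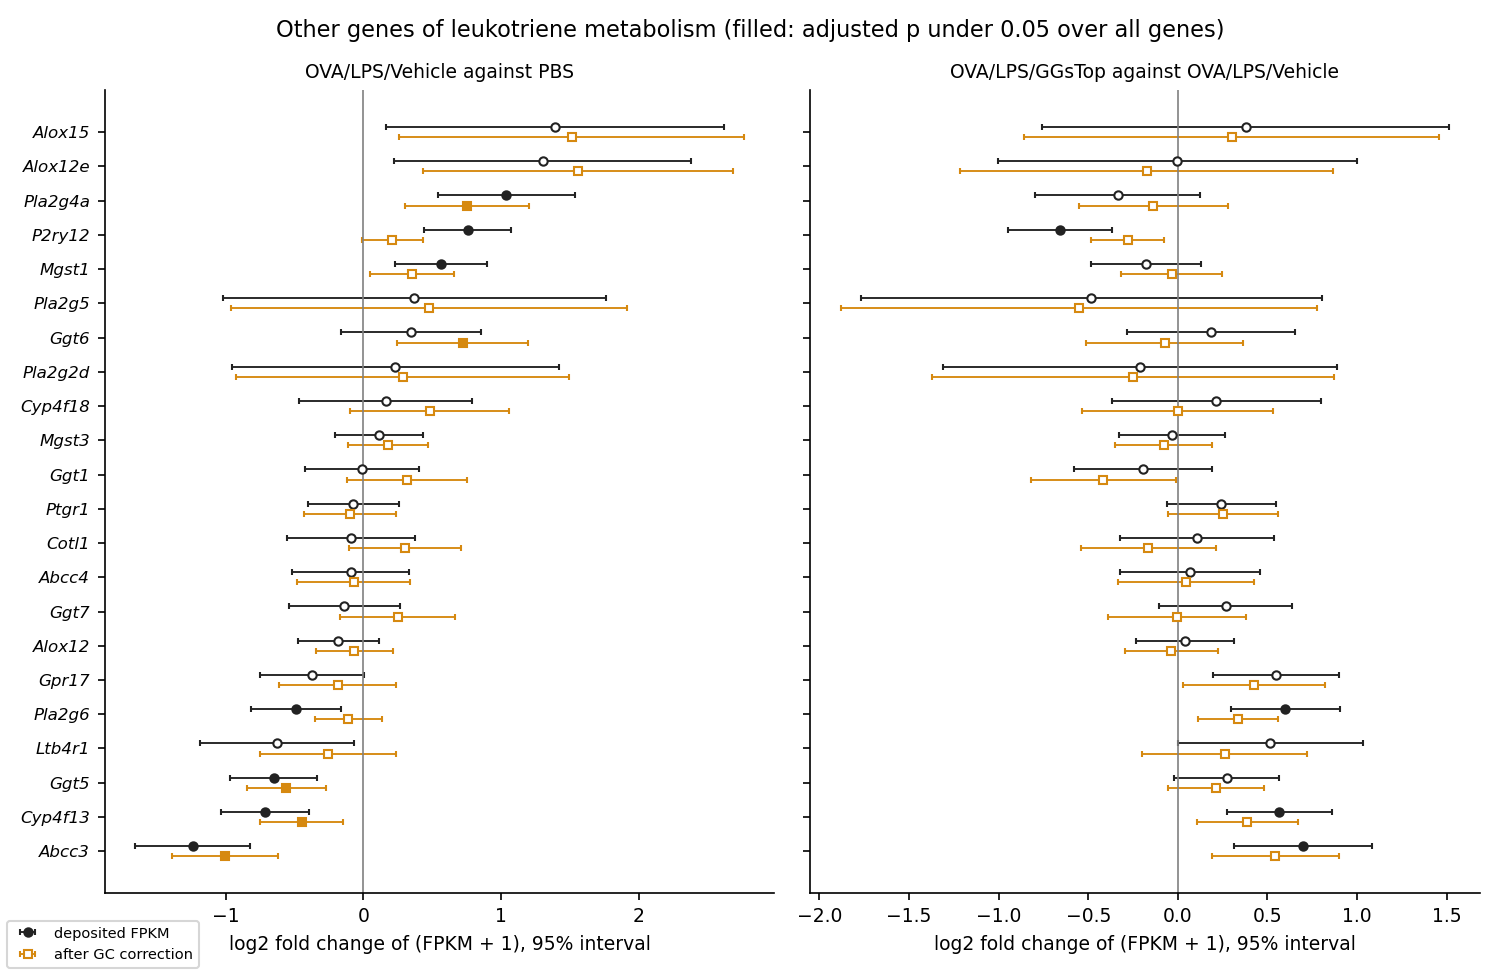
Log2 fold change of (FPKM + 1) (horizontal axis, separate scale per panel) with its 95% interval for the 22 other genes of leukotriene metabolism in the fit, from the deposited FPKM (circles) and after GC correction (squares), filled where the adjusted p is under 0.05. Abcc3, Cyp4f13, Ggt5 and Pla2g4a are filled in both forms against PBS, and no square is filled in OVA/LPS/GGsTop against OVA/LPS/Vehicle.

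Markers of the cells best known for this pathway did not all move one way. The sum of 8 macrophage markers, led by C1qa, ran from 135 to 200 FPKM in PBS, 135 to 262 in OVA/LPS/Vehicle and 191 to 277 in OVA/LPS/GGsTop, with 1 of 8 called higher in GGsTop against vehicle, where 6.9% of all genes were. That marker was Csf1r, the receptor for a macrophage growth factor and 1 of the 3 genes most like Alox5, at 23.04 to 31.6 FPKM in PBS, 12.4 to 20.1 in OVA/LPS/Vehicle and 23.4 to 28.5 in OVA/LPS/GGsTop. It fell by 0.61 (adjusted p = 0.0151) in OVA/LPS/Vehicle against PBS and rose by 0.61 (adjusted p = 0.0351) in OVA/LPS/GGsTop against OVA/LPS/Vehicle. These values are as deposited. The median of genes with a GC content from 54 to 56%, where Csf1r lies (54.5%), was −0.30 in the former comparison and 0.22 in the latter. C1qa instead rose by 0.66 (adjusted p = 0.0214) in OVA/LPS/Vehicle against PBS. In that comparison 3 of the 8 macrophage markers were lower and 5 higher. Of these, 1 was called lower and 1 higher, where 22.1% of all genes were called lower and 15.9% higher. The sum of 8 eosinophil markers, led by Ear2, ran from 102 to 153, from 64.0 to 192 and from 97.2 to 184 FPKM, with 1 of the 7 in the fit called higher in OVA/LPS/Vehicle against PBS, where 15.9% of all genes were. In OVA/LPS/GGsTop against OVA/LPS/Vehicle all 7 were higher, with a median log2 fold change of 0.45, and 0 were called. In OVA/LPS/GGsTop against PBS 6 were higher and 1 lower, with 1 called higher, where 2.06% of all genes were. The sum of 10 mast cell markers, led by Gata2, ran from 79.2 to 102, from 68.2 to 76.6 and from 61.6 to 86.7 FPKM, lower in OVA/LPS/Vehicle than in PBS without overlap. That sum is mostly Gata2, Kit and Hdc. Of the 9 mast cell markers in the fit, 3 were lower and 6 higher in OVA/LPS/Vehicle against PBS, with 1 called lower and 1 higher. There 22.1% of all genes were called lower and 15.9% higher. In OVA/LPS/GGsTop against OVA/LPS/Vehicle, 7 were lower and 2 higher, with 1 called lower, where 1.81% of all genes were. The mast cell protease Cpa3 was at 5.66 to 7.81 FPKM in OVA/LPS/Vehicle and 3.38 to 4.22 in OVA/LPS/GGsTop (−0.72, adjusted p = 0.0292). In OVA/LPS/Vehicle against PBS it stood at 0.13 (adjusted p = 0.562). Ms4a2, a chain of the IgE receptor, was at 0.114 to 0.482 FPKM in PBS and 0.808 to 1.26 in OVA/LPS/Vehicle (0.65, adjusted p = 0.00875). In OVA/LPS/GGsTop against OVA/LPS/Vehicle it stood at −0.28 (adjusted p = 0.185). Each shared a call with Cysltr1 in only 1 of these comparisons. Kit was called lower in OVA/LPS/Vehicle against PBS (−0.91, adjusted p = 0.0165). The values of Csf1r, C1qa, Kit, Cpa3 and Ms4a2 were singled out after they were seen. OVA/LPS/Vehicle 56, the lowest library for Alox5, Alox5ap and Dpep2, was also the lowest in the macrophage and eosinophil sums. No marker of these lists was at 0 in all libraries, and the part of these cells in the members' levels was not tested.

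The genes whose log2(FPKM + 1) was most like each member over the 11 libraries are given as a description. Those libraries share group, depth and GC trend. Cysltr1 was closest to Erap1 (Pearson r = 0.983), Gabpa (0.977) and Tent2 (0.977), whose GC contents of 41.5%, 41.4% and 40.2% are low as well. Dpep1 was closest to Ntn1 (0.976), Asb6 (0.975) and Ric8a (0.975), with GC contents from 54.8 to 57.8%. Alox5 was closest to Tango2 (0.963), Csf1r (0.945) and Man2b1 (0.938), and Alox5ap to Gpr35 (0.960), Tyrobp (0.924) and Tifab (0.906). Ltc4s was closest to Idh2 (0.919), Kcnj8 (0.917) and Kcnh2 (0.907), Abcc1 to Arhgef28 (0.913), Plagl2 (0.906) and Kcnmb1 (0.902), Lta4h to Tmem35a (0.920), Apol9b (0.870) and Wdr89 (0.837) and Cysltr2 to Hoxa5 (0.849), Il18rap (0.842) and Tmem219 (0.831). Mgst2 was closest to an identifier without a symbol (0.957), then to Gramd3 (0.954) and Cdiptos (0.954). Between members, the highest correlation was that of Mgst2 with Abcc1 (0.682) and the lowest that of Dpep1 with Cysltr1 (−0.817).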

How the data were processed

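RNA of airway tissue was sequenced after selection of poly-A RNA. The unit of the deposited table is FPKM, which scales each fragment number by library total and exon length, with 1 column per library. The submitters' processing notes name cutadapt 1.15, HISAT2 2.0.5, HTSeq 0.9.1 and mm39, and every column matched a sample, so 0 were unmapped. Gene symbols, exon lengths and GC content of the longest transcript came from GENCODE M21 on GRCm38, another build, and no coordinate was converted. Of 21899 identifiers 21795 had a symbol. In 97.8% of genes FPKM times exon length was a whole number of fragments in every library (tolerance 0.02 fragments). This gave the totals and fragment numbers. The main fit did not use these recovered fragment numbers, which served for the Poisson intervals and for an alternative fit (voom in limma).

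Genes averaging 0.5 FPKM or more were kept, and log2(FPKM + 1) was modelled on all 11 libraries with limma 3.58.1 (R 4.3.3) and a mean-variance trend. P-values were two-sided and Benjamini-Hochberg adjusted over 14004 genes, and a gene was called under 0.05. The fold change understates that of low genes. The GC correction removed, library by library, a natural spline (5 degrees of freedom) of the deviations from the gene means on GC content. Ratios and Dpep2 were compared by exact permutation tests (scipy 1.17.1). Methods were tested on simulated data. The deviations of PBS and OVA/LPS/GGsTop libraries with the same number correlated at 0.367, 0.427 and 0.428 across genes, so the number was tried as a block, though PBS 1 correlated best with OVA/LPS/GGsTop 3 (0.457) and PBS 2 with OVA/LPS/GGsTop 4 (0.637), and no source says that a number marks a shared animal or batch.

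Named were all members, the 4 γ-glutamyl transferases and the 3 genes most like a member. Other pathway genes were named where called in the main fit, with GC correction or with the block. Of a marker list up to 3 genes were named by level, and others were singled out after their values were seen. The members, lists and tests were chosen with earlier results of these data known.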

Additional observations from a re-analysis of the deposited data

Results flagged for a closer look

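In groups of 4 libraries the highest or lowest value was set against Dixon's 95% limit, which about 1 in 20 groups passes by chance, and 20 groups were tested. Alox5 was 6.95 FPKM in OVA/LPS/GGsTop 2, above the other libraries of its group by a gap of 0.831 of its range. Alox5ap was 2.34 FPKM in OVA/LPS/Vehicle 56, below the other libraries of its group by a gap of 0.925 of its range. The cause was not tested.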

How the results depend on the processing

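Between GGsTop and vehicle 1 member was called, against 2 with a minimum mean of 1 FPKM, without the trend or with a robust fit, 3 with equal FPKM totals, 4 with array weights or only the groups compared, and 0 with GC correction, also with PBS 3 left out or medians made equal. With 1 library left out it was 0 to 4. In OVA/LPS/Vehicle against PBS it was 2, against 1 with only the groups compared, 0 with GC correction and without PBS 3, and 1 to 4 with 1 library left out. For OVA/LPS/GGsTop against PBS it was 0, against 1 with array weights and 0 to 1 with 1 library left out. Of the 22 other pathway genes, 4 were called in OVA/LPS/GGsTop against OVA/LPS/Vehicle, against 1 with equal medians, 0 under each GC correction and 0 to 5 with 1 library left out. Against PBS, OVA/LPS/Vehicle had 7, against 14 with array weights, 1 with GC correction and without PBS 3, and 5 to 10 with 1 library left out, and OVA/LPS/GGsTop had 0, against 8 with array weights and 0 to 4 with 1 library left out.

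With the shared replicate number as a block, OVA/LPS/GGsTop against PBS had 0 members called and 1 other pathway gene, also with GC correction. That fit leaves out OVA/LPS/Vehicle and gives no weight to OVA/LPS/GGsTop 4. Abcc1 turned to −0.0014 and Cysltr1 to 0.0049 in it, the same values as with OVA/LPS/GGsTop 4 left out and no block, and with GC correction Alox5ap turned to 0.0095. No call of a member changed under the block.

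Values are log2 differences, with that from the FPKM as deposited in parentheses. For GGsTop against vehicle, Alox5ap (0.03 as deposited) turned to −0.00545 with equal medians, −0.0595 with GC correction, with or without PBS 3, −0.0493 with array weights and −0.10 with GC correction and equal medians. Mgst2 (−0.06) turned to 0.0180 with equal FPKM totals and 0.0325 with GC correction, with or without PBS 3, Lta4h (−0.12) to 0.0397 and Cysltr2 (−0.15) to 0.10 with the same corrections, and Cysltr2 to 0.0886 with equal medians added. In OVA/LPS/Vehicle against PBS, Alox5ap (−0.15) turned to 0.0409 with array weights and 0.24 with GC correction and without PBS 3, Abcc1 (0.0029) to −0.14 with equal FPKM totals, and Cysltr1 (0.45) to −0.16 with GC correction, −0.13 without PBS 3 as well and −0.16 with equal medians as well. Alox5ap (−0.12) turned to 0.18 in OVA/LPS/GGsTop against PBS with GC correction and without PBS 3.

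With 1 library left out, OVA/LPS/GGsTop against OVA/LPS/Vehicle ran from −0.21 to 0.13 for Alox5ap, −0.27 to 0.0659 for Mgst2 and −0.0043 to 0.18 for Abcc1. OVA/LPS/Vehicle against PBS ran from −0.40 to 0.14 for Alox5ap and −0.0593 to 0.0764 for Abcc1. OVA/LPS/GGsTop against PBS ran from −0.0198 to 0.24 for Alox5, −0.37 to 0.18 for Alox5ap, −0.0014 to 0.18 for Abcc1 and −0.23 to 0.0551 for Cysltr1, and the ratio of Dpep1 to Dpep2 from −0.39 to 0.27. The cause of these changes was not tested. Alox5 and Ltc4s in OVA/LPS/GGsTop against OVA/LPS/Vehicle kept their sign under every alternative, as did Dpep1, with adjusted p from 0.0181 to 0.773, 0.0118 to 0.772 and 0.00535 to 0.813. With OVA/LPS/Vehicle 78 as the lone vehicle library, 0 members and 0 other pathway genes were called against either group, Alox5ap turned to −0.20 for GGsTop against vehicle and 0.0827 for vehicle against PBS, and Cysltr2 to 0.0429 in the former. Over all genes that setting called 0, 4 and, for OVA/LPS/GGsTop against PBS, 39. With nothing added to FPKM, the ratio of Dpep1 to Dpep2 turned from 0.44 to −0.24 for GGsTop against vehicle, from −0.51 to 0.45 for vehicle against PBS and from −0.07 to 0.21 for OVA/LPS/GGsTop against PBS.

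Over all genes, 1220 were called between GGsTop and vehicle (254 lower, 966 higher), against 313 with GC correction, 84 with equal medians added, 549 with PBS 3 left out instead, 698 with equal medians alone (354 lower, 344 higher), 2181 with equal FPKM totals (155 lower, 2026 higher), 5214 with array weights and 3525 with only the groups compared. In OVA/LPS/Vehicle against PBS it was 5327 (3096 lower, 2231 higher), against 3001 with GC correction, 2732 with equal medians added, 735 with PBS 3 left out instead, and 4570 lower and 1232 higher with equal FPKM totals, which moved the median of all genes from −0.01 to −0.15. For OVA/LPS/GGsTop against PBS it was 403 (115 lower, 288 higher), against 208 with no filter, 609 with GC correction, 52 with PBS 3 also left out, 2557 with array weights, 39 with only the groups compared and 243 lower and 250 higher with equal FPKM totals. The settings that join GC correction with the block, with PBS 3 left out or with equal medians, the lone vehicle library and the ratios with nothing added were chosen after the data were seen. Depth limits Ltc4s, Cysltr2 and Dpep2, which rest on 1 to 42 fragments per library.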
